A study of Mus musculus with 2 samples.

Results

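Bergmann glia were examined in single-nucleus RNA-seq of the mouse cerebellum at postnatal day 1. They were taken as the nuclei with at least 1000 detected genes and at most 5% mitochondrial UMIs (unique molecular identifiers, 1 per counted transcript) that held 2 or more Slc1a3 UMIs, a Gdf10 plus Tnc sum of 3 or more that exceeded the sum of Slc6a11, Aqp4 and Itih3, and no UMI of Pdgfra or Sox10. This rule took 986 of 10033 filtered nuclei, 297 of 3816 in control and 689 of 6217 in the cKO-labelled library. The nuclei were thus selected on the values of these genes, which are given below as a description only.

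There were 2 libraries, each from 12 pooled snap-frozen cerebella. The control library came from littermates without Cre that carry the loxP-flanked Tox3 allele, given as Tox3f/f in one label and as Tox3f/f or Tox3f/+ in another. The cKO library came from Nestin-cre;Tox3f/f conditional knockout mice, in which Nestin-cre recombines in neural precursors and so in glia as well as neurons. With 1 library per group, the genotype, the pool of animals and the preparation cannot be told apart, no difference has a replicate check, and no test between groups was possible. Every interval is a 95% interval that covers counting error only.

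Bergmann glia are the radial astrocytes of the cerebellar cortex. They arise from the ventricular zone, keep radial fibres that reach the pial surface, and guide granule neurons on their way inward from the external granule layer. In the adult they wrap Purkinje cell synapses, take up glutamate through the transporter encoded by Slc1a3 and sense it with AMPA receptors that contain the subunit encoded by Gria1. Their radial form depends on FGF signalling through the ERK kinases, and they respond to Sonic hedgehog released by Purkinje cells.

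The genes that define Bergmann glia were high in these nuclei. Slc1a3 (ENSMUSG00000005360, chromosome 15, 8634124 to 8710764, minus strand, GRCm38) had 3303 CPM in control, against 3134 CPM in the cKO-labelled library, where CPM is the UMIs of a gene per 1000000 UMIs summed over the nuclei. All other filtered nuclei had 93.4 and 144 CPM. Tnc (ENSMUSG00000028364, chromosome 4, 63959785 to 64047015, minus strand), which encodes the matrix glycoprotein tenascin C, had 2515 CPM in control, against 2007 CPM in the cKO-labelled library. Gdf10 (ENSMUSG00000021943, chromosome 14, 33923587 to 33937983, plus strand), which encodes a secreted factor of the TGF beta superfamily, had 424 CPM in control, against 684 CPM in the cKO-labelled library. Hepacam (ENSMUSG00000046240, chromosome 9, 37367351 to 37386575, plus strand), which encodes an adhesion protein of glia, was not used by the rule and had 165 and 208 CPM, against 10.7 and 21.4 CPM in the other nuclei. It marks astroglia at large, with 223 and 311 CPM in parenchymal astrocytes. A Gdf10 UMI was present in 70% and 79.1% of nuclei and a Tnc UMI in 99.7% and 98.1% of nuclei, in the order control and library labelled cKO, which is kept below wherever values come in pairs.

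The edges of the rule were thinly filled. Just outside it, 8 control nuclei and 38 nuclei of the cKO-labelled library had a Gdf10 plus Tnc sum of 2, and just inside it 9 and 39 had a sum of 3. With 1 Slc1a3 UMI there were 9 and 13 nuclei outside, and with 2 there were 3 and 16 inside. The comparison with Slc6a11, Aqp4 and Itih3 left out 15 and 54 nuclei, and the absence of Pdgfra and Sox10 left out 11 and 27. The 2 libraries shared 9 barcodes, none of them among these nuclei. Their median depth was 4636 UMIs in control and 3939 in the cKO-labelled library, and they summed to 1676236 and 3329738 UMIs. The deepest control nucleus had 52171 UMIs. Sex-linked UMIs differed between the pools: 53.2% of control Bergmann glia and 74% in the cKO-labelled library had a Xist UMI. Both a Xist and a Y-linked UMI were present in 11.8% and 9.43%, so a Xist UMI does not give the sex of every nucleus.

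Genes beyond the rule were also higher in these nuclei than over all other nuclei. Ranked by the smaller of the 2 folds over all other filtered nuclei, the leading genes outside the rule were 8030451A03Rik, Gm29266, Ackr3, Rxrg, Gm15756, Gm31135, Moxd1, Gm26911, Ano1, Shroom3, Aldh1l1, Pdlim3, Cyp26b1, Nid1, Plscr4, Mybpc1 and Wwtr1. 8030451A03Rik is a transcript that overlaps Tnc on the other strand and so is not independent of the rule, and it was 82.5-fold and 47.7-fold over the other nuclei. Ackr3, a scavenging receptor of the chemokine Cxcl12, was 47.6-fold and 33-fold over them. Cyp26b1, which encodes an enzyme that degrades retinoic acid, had 1663 and 1124 CPM and was 34.2-fold and 18.5-fold over them. Nid1 encodes the basement membrane protein nidogen 1 and was 28-fold and 18.5-fold over them. Aldh1l1, an astroglial folate enzyme, was 27.2-fold and 19.3-fold over them, and Gm15756 overlaps it on the other strand. Some of these genes are shared with parenchymal astrocytes, which had 294 and 256 CPM of Aldh1l1, 351 and 268 CPM of Nid1 and 817 and 793 CPM of Cyp26b1, against 345 and 344 CPM, 403 and 437 CPM and 1663 and 1124 CPM in Bergmann glia.

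The nearest cell type was the parenchymal astrocyte, taken by the mirrored rule, with 29 control nuclei and 105 nuclei of the cKO-labelled library. Gria1 (ENSMUSG00000020524, chromosome 11, 57011387 to 57330244, plus strand) led the genes higher in Bergmann glia, with 1920.4 and 1319.6 CPM in Bergmann glia and 217 and 121 CPM in parenchymal astrocytes. The ratio of the 2 cell types was 8.85 (6.32 to 12.8) in control and 10.9 (8.48 to 14.3) in the cKO-labelled library. Shroom3, which encodes a regulator of actin and apical constriction, had 842 and 639 CPM in Bergmann glia and 95.8 and 59.5 CPM in parenchymal astrocytes. Col4a6, a collagen IV chain of basement membranes, had 124 and 122 CPM in Bergmann glia and 12.8 and 25.8 CPM in parenchymal astrocytes.

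In the other direction stood genes of astrocyte function. Apoe, the main lipid carrier secreted by astroglia, had 789 and 1351 CPM in Bergmann glia and 3090.5 and 4153 CPM in parenchymal astrocytes, a ratio of 0.255 (0.23 to 0.284) in control and 0.325 (0.309 to 0.343) in the cKO-labelled library. Gja1, which encodes the gap junction protein connexin 43, had 40.6 and 59.8 CPM in Bergmann glia and 166 and 289.5 CPM in parenchymal astrocytes. Grm5 encodes a metabotropic glutamate receptor and had 168 and 235 CPM in Bergmann glia and 785 and 902 CPM in parenchymal astrocytes. Egfr, the epidermal growth factor receptor, had 272 and 259 CPM in Bergmann glia and 856 and 910.3 CPM in parenchymal astrocytes. The direction of each of these genes was shared by both libraries.

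Members were also described by Gdf10, a gene of the rule, so that those without a Gdf10 UMI entered through Tnc alone and the subsets passed different gates. Members with and without a Gdf10 UMI (208 and 89 in control, 545 and 144 in the cKO-labelled library) had similar depth, with medians of 4655 and 4603 UMIs in control and 3931 and 3970.5 UMIs in the cKO-labelled library. Shroom3 was higher with Gdf10, at 1062 against 275 CPM in control and 773 against 192 CPM in the cKO-labelled library. Gria1 went the same way, at 2302 against 939.8 CPM in control and 1589 against 417 CPM in the cKO-labelled library. Wif1, which encodes a secreted Wnt inhibitor, was 6.51-fold and 6.81-fold higher with Gdf10. Top2a, which encodes a topoisomerase of dividing cells, was 2.77-fold and 3.5-fold higher.

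Members without a Gdf10 UMI had more of several astrocyte genes. Ncan, which encodes the proteoglycan neurocan, had ratios of 0.251 and 0.349 with over without Gdf10. Grm5 had ratios of 0.328 and 0.255, Slc4a4, a sodium bicarbonate cotransporter, 0.451 and 0.47, and Apoe 0.373 and 0.578. Fabp7, a fatty acid binding protein of radial glia, differed little, with 0.82 and 0.884. Both libraries shared each of these directions. Slc6a11, which the rule limits, had 0.258 and 0.278.

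**Figure D1:**
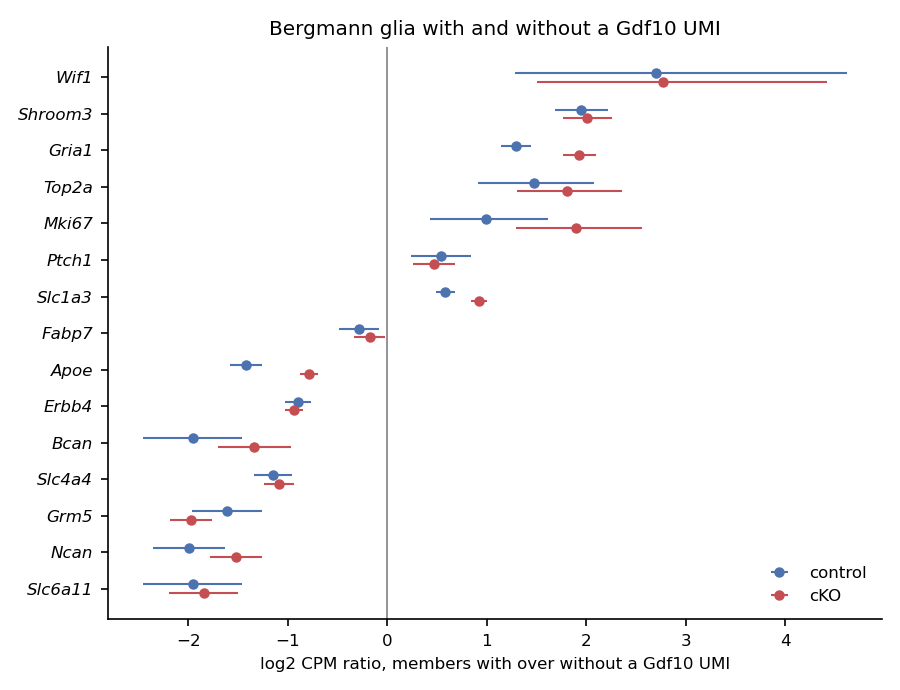
Each point is the log2 ratio of CPM in Bergmann glia with a Gdf10 UMI over those without, for control and for the cKO-labelled library, and the bars are 95% counting intervals. Wif1, Shroom3 and Gria1 lie to the right and Ncan and Grm5 to the left in both libraries.

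UMIs of 25 G2/M genes, which dividing cells express, were counted after each nucleus had been thinned at random to 3000 UMIs, which left out 35 and 123 shallower members. At a cut of 3 or more G2/M UMIs, 29.8% of control Bergmann glia (78 of 262) and 25.1% (142 of 566) in the cKO-labelled library passed. The ratio was 0.843 (0.635 to 1.13), so a difference was not detectable at this depth. At the same cut, a gate of 3 or more UMIs over Csf1r, Cx3cr1, P2ry12, Mrc1 and Inpp5d, which took microglia and also neurons, had 25.3% and 15.2%, and the gate of Csf1r 3 or more had 53.3% (8 of 15) and 45% (18 of 40). After thinning, a Mki67 UMI was present in 33.3% and 37.5% of the nuclei in the Csf1r gate, against 17.2% and 14.0% of Bergmann glia. These gates may thus hold dividing nuclei themselves, and whether the cut marks dividing nuclei was not tested. Without thinning the shares were 46.8% and 35.3%, in nuclei that were deeper in control. After thinning, members with a Gdf10 UMI had shares of 31.4% and 28.5%, and members without one 26% (20 of 77) and 13.3% (17 of 128).

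Mki67, the proliferation marker, had 109.8 and 97 CPM, a ratio of 0.884 (0.735 to 1.06), while in all other nuclei the ratio was 0.431. Without thinning, Apoe was lower in members with 3 or more G2/M UMIs than in the others in both libraries, at 644 against 999 CPM in control and 1005 against 1639 CPM in the cKO-labelled library. Cyp26b1 and Aldh1l1 were also lower in them, with ratios of 0.711 and 0.681 and of 0.603 and 0.67.

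The share of Bergmann glia was compared between the libraries. They made up 7.78% (6.95 to 8.68) of filtered control nuclei and 11.1% (10.3 to 11.9) in the cKO-labelled library, a ratio of 1.42 (1.24 to 1.64). A share also moves with the other cell types. Outside a granule lineage gate (Pax6, Neurod1 and Cntn2 sum of 3 or more without Gad1 or Gad2), which held 1200 and 952 nuclei, the shares were 11.4% and 13.1%, a ratio of 1.15 (1.0 to 1.33). Slc1a3 UMIs were present in 23.5% and 29% of the nuclei in that gate. Of all astroglia, meaning Bergmann glia plus parenchymal astrocytes, Bergmann glia made up 91.1% (87.5 to 94) and 86.8% (84.2 to 89.1), a ratio of 0.952 (0.83 to 1.1). That ratio interval treats the counts as having no upper limit. It is too wide for shares this high and does not show whether they differed. In nuclei with a Y-linked and no Xist UMI the ratio for all filtered nuclei was 1.08, and with a Xist UMI it was 1.62.

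Tox3, the targeted gene (ENSMUSG00000043668, chromosome 8, 90247040 to 90348343, minus strand), encodes a chromatin factor of the TOX family, which bind DNA through an HMG box. Bergmann glia had 253 Tox3 UMIs in control, or 151 CPM (133 to 171), and 571 in the cKO-labelled library, or 171 CPM (158 to 186). The ratio was 1.14 (0.978 to 1.32), so Tox3 UMIs were not lower. A Tox3 UMI was present in 42.4% and 41.7% of nuclei, and in 2 of 29 and 3 of 75 nuclei of a microglia gate (Csf1r 3 or more), a cell type outside the neural lineage, at medians of 3100 and 3078 UMIs. After thinning the Bergmann glia shares were 27.9% and 32.5%. Counts per gene do not show whether the deleted segment was read, so they do not check the genotype, and every direction given here is that of the library as labelled. Atoh1, a granule progenitor gene, had 35 UMIs in control and 1 in the cKO-labelled library over all nuclei outside Bergmann glia, and 19 and 0 UMIs in the granule gate.

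The other TOX family genes differed in direction. Tox, known from T cell development, had 174 and 126 CPM, a ratio of 0.725 (0.623 to 0.845). Tox2 had only 5 and 30 UMIs, a ratio of 3.02 (1.16 to 9.97). Tox4 had 66.2 and 70.3 CPM, a ratio of 1.06 (0.843 to 1.34).

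Gdf10 and Tnc, the genes that chose the nuclei, differed in opposite directions. Within the members Gdf10 was 1.61-fold higher (1.48 to 1.76) in the cKO-labelled library and Tnc was 1.25-fold lower (1.21 to 1.3). To free the comparison from the rule, each gene was measured in nuclei gated without it. With 2 or more Slc1a3 and 2 or more Tnc UMIs, and the other criteria kept, 295 and 654 nuclei had 418 CPM (387 to 449.9) and 625 CPM (598 to 653) of Gdf10, a ratio of 1.5 (1.37 to 1.63). A Gdf10 UMI was present in 68.5% and 74.8% of them.

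The ratio of Gdf10 in that gate was 1.56 in nuclei with a Xist UMI and 1.58 in those with a Y-linked and no Xist UMI. Gdf10 was also higher outside Bergmann glia, with 9.23 and 18.9 CPM over all other nuclei. In nuclei gated by Slc1a3 and Gdf10 (134 and 389), Tnc had 2586 and 2186 CPM and was 1.18-fold lower (1.12 to 1.25) in the cKO-labelled library.

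**Figure D2:**
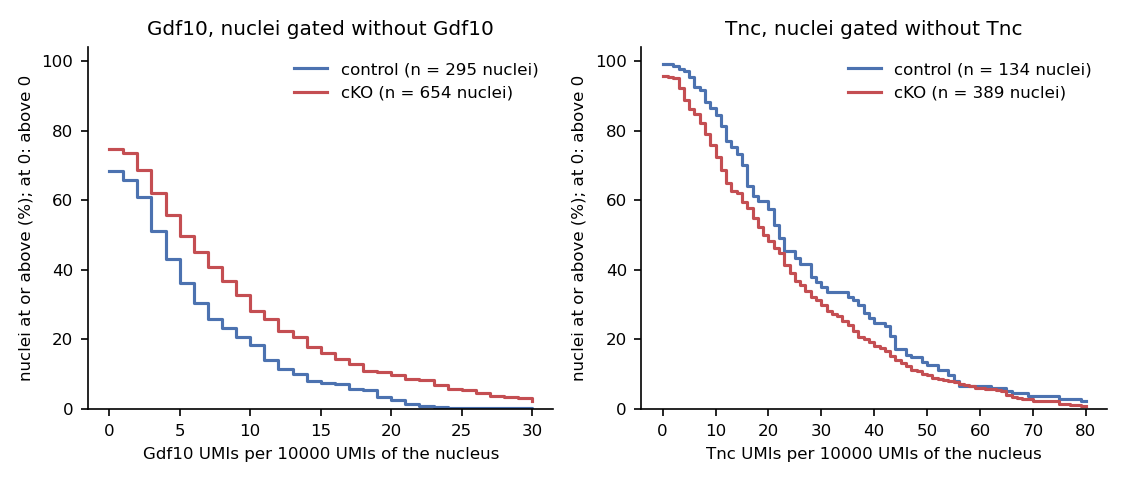
The curves give the share of gated nuclei (%) with at least the UMIs of Gdf10 (left) or Tnc (right) per 10000 UMIs shown on the x axis, for control and for the cKO-labelled library. The Gdf10 curve of the cKO-labelled library lies above that of control, and over most of its range the Tnc curve lies below.

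Genes outside the rule were then compared across the 12438 genes that reached 30 UMIs in Bergmann glia of both libraries together. Past 1.5-fold, 846 genes (6.80%) were higher and 614 (4.94%) lower in the cKO-labelled library, and the counting interval left out 1 for 398 and 330 of them. The median log2 ratio over all compared genes was 0.01. Of the 846 higher and 614 lower genes, 99 and 107 were also past 1.5-fold in the same direction in all other filtered nuclei. The share of all compared genes past 1.5-fold in those nuclei is not given here. These counts therefore do not show whether the overlap exceeds that share. In bulk sums of a class, fewer expressing nuclei and fewer UMIs per nucleus cannot be told apart, so the nuclei with a UMI are given for several of the genes below.

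The 15 genes lower in the cKO-labelled library by the bound of their interval nearest 1 included Vwa5b1, Ankrd6, Ccbe1, Nkain3 and Igfbp2. Vwa5b1 (ENSMUSG00000028753, chromosome 4, 138565360 to 138635884, minus strand) had 112 and 54 UMIs in 58 of 297 and 42 of 689 nuclei, or 66.8 and 16.2 CPM, and was 4.12-fold lower (2.95 to 5.81). Ankrd6 (ENSMUSG00000040183, chromosome 4, 32804035 to 32950841, minus strand), which encodes the Wnt pathway regulator diversin, had 263 and 156 UMIs in 102 of 297 and 99 of 689 nuclei, or 157 and 46.9 CPM, and was 3.35-fold lower (2.74 to 4.11). In the other nuclei the ratio was 1.25 (0.98 to 1.6) for Vwa5b1 and 1.28 (1.14 to 1.44) for Ankrd6. Nkain3, which encodes a membrane protein that interacts with the sodium pump, had 1077 and 876 UMIs in 196 of 297 and 288 of 689 nuclei, or 643 and 263 CPM, and was 2.44-fold lower (2.23 to 2.67), with a ratio of 0.997 in the other nuclei. Igfbp2, an insulin-like growth factor binding protein, had 119 and 49 CPM in 119 of 297 and 115 of 689 nuclei and was 2.43-fold lower (1.96 to 3.0).

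Each of these genes was detected in a smaller share of nuclei in the cKO-labelled library. Ccbe1, which encodes a secreted matrix protein known for lymphatic growth, had 160.5 and 58 CPM in 110 of 297 and 119 of 689 nuclei and was 2.77-fold lower (2.29 to 3.35). Sept4, a septin of the cytoskeleton, had 44.1 and 16.8 CPM and was 2.62-fold lower (1.83 to 3.78). Igdcc3, an immunoglobulin superfamily receptor gene, had 55.5 and 22.2 CPM and was 2.5-fold lower (1.82 to 3.44). Stk17b encodes a kinase and Abcb9 a lysosomal peptide transporter. Stk17b had 40 and 16.2 CPM and was 2.46-fold lower (1.7 to 3.6), and Abcb9 had 75.8 and 34.5 CPM and was 2.19-fold lower (1.69 to 2.85). Gm34086 overlaps Abcb9 on the other strand and was lower too. It had 171 and 84.0 CPM in members with 3 or more G2/M UMIs and 285 and 136 CPM in the other members. Bcas1, known from the oligodendrocyte lineage, had 53 and 39 UMIs and was 2.7-fold lower (1.75 to 4.19), while in all other nuclei its ratio was 1.69.

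Other genes of this group were lower outside Bergmann glia too. In the other nuclei the ratios were 0.719 for Igfbp2, 0.748 for Ccbe1, 0.625 for Sept4 and 0.603 for Stk17b, and each counting interval lay below 1. For Igdcc3 and Abcb9 they were 1.1 and 1.21. Btbd11 and Kctd8, both in the list of granule progenitor markers, were 2.11-fold lower (1.75 to 2.55) and 2.01-fold lower (1.67 to 2.42), with ratios of 0.541 and 0.468 in the other nuclei. Dcc, the netrin receptor gene, had 1862 and 1045 CPM in 239 of 297 and 459 of 689 nuclei and was 1.78-fold lower (1.7 to 1.87), with a ratio of 0.466 in the other nuclei. Of 6 compared granule progenitor markers, 4 were past 1.5-fold lower (Btbd11, Kctd8, Barhl1 and Hist1h2ap) and 0 higher. Over all compared genes the shares were 4.94% lower and 6.80% higher. The median log2 ratio of the list was -0.85. The summed level of the 8 granule progenitor markers was 394 and 208 CPM in Bergmann glia and 954 and 443 CPM in the other nuclei. Their defining gene Atoh1 had 4 and 2 UMIs in Bergmann glia, and Fgf8 was at 0 in both libraries. Those Atoh1 counts were 2.39 and 0.601 CPM, against 1.76 and 0.0334 CPM in the other nuclei. Relative to depth, Atoh1 was thus not lower in Bergmann glia than in the other nuclei of the same library. Its ratio of the cKO-labelled library over control in Bergmann glia was 0.252 (0.0228 to 1.76), on too few UMIs to give a direction. The part of granule progenitor RNA in the ratios of Btbd11, Kctd8 and Dcc was not tested. The remaining 2 named genes, Gm49853 and 6330411D24Rik, are non-coding transcripts with 38 and 26 UMIs and 20 and 10 UMIs, and 6330411D24Rik was in 7 of 297 and 8 of 689 nuclei.

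The 15 genes higher in the cKO-labelled library were of another kind, since several lay in few nuclei. Cdh9, which encodes a cadherin, had 23 and 468 UMIs in 20 of 297 and 58 of 689 nuclei, and 5 nuclei held 72.4% of its UMIs in the cKO-labelled library. Its ratio was 10.2 (6.74 to 16.3). Gm49127 overlaps Cdh9 on the other strand and had 6 and 110 UMIs in 4 of 297 and 15 of 689 nuclei. Car8, a carbonic anhydrase-related gene of Purkinje cells, had 69.2 and 190.4 CPM in 32 of 297 and 116 of 689 nuclei and a ratio of 2.75 (2.25 to 3.38). 4930438E09Rik and Gm6878 both overlap Ebf2, a transcription factor gene of a Purkinje cell subset, on the other strand and had ratios of 3.19 (2.23 to 4.7) and 6.04 (2.21 to 23.1). Cntnap5a, a neurexin superfamily gene, and Snhg11, a non-coding RNA host gene of neurons, had ratios of 2.95 (2.41 to 3.64) and 2.37 (2.07 to 2.74). All of these were higher in the other nuclei as well. There the ratios were 1.61 for Cdh9, 1.47 for Gm49127, 1.8 for Car8, 1.71 for 4930438E09Rik and 1.72 for Gm6878. For Cntnap5a and Snhg11 they were 1.49 and 1.66.

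Purkinje cell markers as a list were higher in the Bergmann glia of the cKO-labelled library. Of 9 compared, 5 were past 1.5-fold higher and 0 lower, against 6.80% and 4.94% of all compared genes. Their median log2 ratio was 0.67. The summed level was 2644 and 3074 CPM, most of it Rora, which astroglia also express. When the nuclei with the highest Scrublet doublet scores were removed (40 and 101 of the members), the median turned to -0.27, and the ratios of Car8, Ebf2, Cntnap5a and Snhg11 became 0.802, 0.827, 0.862 and 0.893. Without the 5% deepest members the ratio of Cdh9 was 2.36, and without members with 5 or more UMIs over Car8, Calb1, Ebf2 and Lhx1 it was 1.21.

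Dnah12, Pifo and Vwa3a, which are expressed in ciliated cells, were also among the 15. Dnah12, a ciliary dynein gene, had 3 and 49 UMIs in 3 of 297 and 12 of 689 nuclei, and 5 nuclei held 83.7% of them in the cKO-labelled library. Pifo had 4 and 56 UMIs in 4 of 297 and 33 of 689 nuclei, and Vwa3a 2 and 37 UMIs in 2 of 297 and 21 of 689 nuclei. Chil5, the neighbour of Pifo in the genome, had 1 and 29 UMIs. In the other nuclei the ratios were 1.53 for Dnah12, 2.0 for Pifo, 1.06 for Vwa3a and 1.36 for Chil5. The 7 ependymal and choroid plexus markers summed to 114 and 155 CPM. Of 4 compared, 1 (Dnah12) was past 1.5-fold higher, against 6.80% of all compared genes. The part of ependymal and choroid plexus cells in the result was not tested.

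Other genes higher in the cKO-labelled library were spread over more nuclei. Zbtb16, which encodes the zinc finger factor PLZF, had 42 and 233 UMIs in 24 of 297 and 150 of 689 nuclei, or 25.1 and 70 CPM, and was 2.79-fold higher (2.0 to 3.98), with a ratio of 1.09 in the other nuclei. A330015K06Rik, a transcript that overlaps Kcnab1 on the other strand, had 94.9 and 250.5 CPM in 55 of 297 and 210 of 689 nuclei and was 2.64-fold higher (2.23 to 3.15). Folh1, which encodes the peptidase that cleaves N-acetylaspartylglutamate, had 2 and 59 UMIs in 2 of 297 and 44 of 689 nuclei, and with 2 control UMIs its ratio was 14.9 (3.93 to 125). Pla2g3, a secreted phospholipase gene, had 7 and 65 UMIs in 5 of 297 and 46 of 689 nuclei and a ratio of 4.67 (2.14 to 12.1). A330015K06Rik, Folh1 and Pla2g3 were higher in the other nuclei too, with ratios of 1.34 (1.29 to 1.4), 2.18 (1.09 to 4.75) and 1.65 (1.42 to 1.93). Pla2g3 had 4.18 and 19.5 CPM in Bergmann glia, against 12.1 and 20.1 CPM in the other nuclei.

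**Figure D3:**
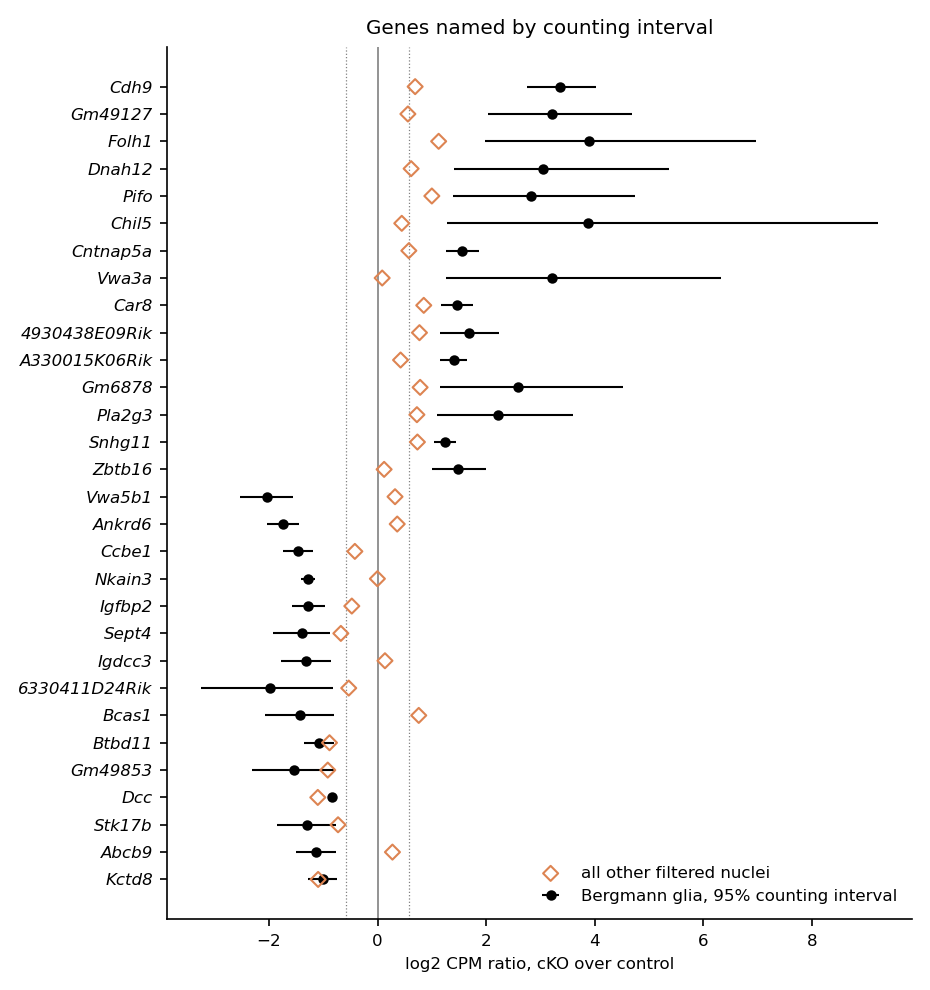
Filled points give the log2 CPM ratio of the cKO-labelled library over control in Bergmann glia for the 30 named genes, with 95% counting intervals, and open diamonds give the ratio in all other filtered nuclei. Dotted lines mark 1.5-fold. Vwa5b1, Ankrd6, Bcas1 and Abcb9 lie left of 0 in Bergmann glia and right of it in the other nuclei.

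The genes were next grouped by function, beginning with glial identity. For every list below, the counts past 1.5-fold stand beside the 6.80% of all compared genes that were higher and the 4.94% that were lower. At those shares a list of this size holds few genes, so a count of 1 is no result about a list. Among Bergmann and radial glia genes outside the rule, 18 were compared, 0 were past 1.5-fold higher and 3 past 1.5-fold lower (Hopx, Sept4 and Etv4), with a median log2 ratio of -0.17. Fabp7 had 560.2 and 558 CPM, a ratio of 0.996 (0.92 to 1.08). Ptprz1, a receptor phosphatase gene of radial glia, had 1377 and 1375 CPM, a ratio of 0.998 (0.949 to 1.05). These levels lay within counting error of each other. Hopx, a homeodomain gene of radial glia, had 26.2 and 15.6 CPM and was 1.68-fold lower (1.1 to 2.56). Npas3, a transcription factor gene, had 3471 and 3022 CPM, a ratio of 0.871 (0.843 to 0.899). Hepacam had a ratio of 1.26 (1.09 to 1.45). For parenchymal astrocyte genes outside the rule, 1 of 10 compared, Agt, was past 1.5-fold higher on 8 and 25 UMIs and 0 were lower.

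Genes that sense and clear glutamate and GABA followed. Of 15 compared genes, 0 were past 1.5-fold higher and 1 past 1.5-fold lower, with a median log2 ratio of -0.14. Gria1 had 3219 and 4394 UMIs, or 1920.4 and 1319.6 CPM, and was 1.46-fold lower (1.39 to 1.52), short of 1.5-fold, while its ratio in all other nuclei was 1.54. Grm3, a metabotropic glutamate receptor gene, had 2634 and 1956 CPM and was 1.35-fold lower (1.3 to 1.4), with a ratio of 1.33 in the other nuclei. The level of Gria1 was lower both in members with a Gdf10 UMI, at 2302 and 1589 CPM, and in those without, at 939.8 and 417 CPM. Grm5 went the other way, with 168 and 235 CPM, a ratio of 1.4 (1.22 to 1.61). Gria4 and Gria2, which encode further AMPA receptor subunits, had ratios of 0.917 (0.878 to 0.958) and 0.955 (0.901 to 1.01). Slc7a11, the cystine-glutamate exchanger gene, was the 1 gene of the list past 1.5-fold, with 47 and 50 UMIs and 1.87-fold lower (1.23 to 2.84). Slc1a2, a glutamate transporter gene, had a ratio of 0.909 (0.826 to 1.0).

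FGF receptors and the genes induced by ERK had the lowest median of the functional lists. Of 13 compared genes, 0 were past 1.5-fold higher and 3 past 1.5-fold lower, with a median log2 ratio of -0.36. Over all compared genes 4.94% were past 1.5-fold lower. Spry2 (ENSMUSG00000022114, chromosome 14, 105891947 to 105896819, minus strand), a feedback inhibitor of the pathway, had 136 and 130 UMIs in 107 of 297 and 111 of 689 nuclei, or 81.1 and 39 CPM, and was 2.08-fold lower (1.62 to 2.66), with a ratio of 0.904 in the other nuclei. Etv4, an ETS factor gene induced by FGF, had 51.9 and 32.4 CPM and was 1.6-fold lower (1.19 to 2.14). Spry1 had only 21 and 22 UMIs and a ratio of 0.527 (0.277 to 1.01). Etv5, Etv1 and Spred2, short of 1.5-fold, had ratios of 0.749 (0.64 to 0.879), 0.751 (0.615 to 0.918) and 0.748 (0.638 to 0.877). Of the receptors, Fgfr2 had 1098 and 1222 CPM, a ratio of 1.11 (1.05 to 1.18), and Fgfr1 401 and 351 CPM, a ratio of 0.875 (0.795 to 0.964). The list median lay between -0.41 and -0.20 over all alternatives tried.

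Sonic hedgehog genes were set beside their ratios in the other nuclei, which include the granule progenitors. Over 11 compared genes the median log2 ratio was -0.01. Gli1, a target of the pathway, had 41.2 and 42.3 CPM, a ratio of 1.03 (0.766 to 1.39), against 0.444 in the other nuclei. Ptch1, the receptor and target gene, had 325 and 391 CPM, a ratio of 1.2 (1.09 to 1.33), against 0.648. Gli2 had 238 and 194 CPM, a ratio of 0.814 (0.717 to 0.924), against 0.326. Cdon, a coreceptor gene, was past 1.5-fold higher on 11 and 67 UMIs, with a ratio of 3.07 (1.61 to 6.43) that was 1.09 once doublets were removed.

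In the Notch list, whose signalling keeps glial progenitors, 0 of 13 compared genes were past 1.5-fold. Maml2, a coactivator gene, had 1375 and 1151 CPM, a ratio of 0.837 (0.795 to 0.882). Dner, a Notch ligand gene, had a ratio of 1.18 (1.04 to 1.34) and Notch1 one of 1.18 (1.03 to 1.35). The median log2 ratio was -0.07.

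BMP and Wnt genes past 1.5-fold rested on few UMIs. Of 20 compared genes, 2 were past 1.5-fold higher and 1 past 1.5-fold lower, with a median log2 ratio of 0.08. Bmp6, a ligand, had 23 and 84 UMIs and a ratio of 1.84 (1.15 to 3.06), which was 1.21 once doublets were removed. The inhibitor Smad6 was 1.51 (0.966 to 2.43) and the receptor gene Tgfbr2, on 15 and 18 UMIs, 0.604 (0.288 to 1.29), both with 1 inside the interval. The target Id3 had 87.7 and 105 CPM, a ratio of 1.2 (0.986 to 1.46). For the Wnt list, 18 genes were compared, 1 was past 1.5-fold higher (Fzd10) and 3 past 1.5-fold lower (Sfrp1, Sfrp2 and Fzd2), with a median log2 ratio of -0.16. Fzd10, a receptor gene, had 23 and 81 UMIs and a ratio of 1.77 (1.1 to 2.95). The secreted inhibitor gene Sfrp1 had 23 and 24 UMIs and a ratio of 0.525 (0.284 to 0.974). Znrf3 and Tcf7l1, the Wnt genes with the most UMIs, had ratios of 0.873 (0.793 to 0.962) and 0.916 (0.82 to 1.02).

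Among matrix and basement membrane genes the few that differed went both ways. Of 14 compared genes, 1 was past 1.5-fold higher and 0 past 1.5-fold lower, with a median log2 ratio of 0.02. Gpc5, a glypican gene, had 39 and 130 UMIs and a ratio of 1.68 (1.17 to 2.47), which was 1.05 once doublets were removed. Gpc6 had 938 and 1129.5 CPM, a ratio of 1.2 (1.13 to 1.28). Vcan, for the proteoglycan versican, had 959 and 1045 CPM, a ratio of 1.09 (1.03 to 1.16). Of 16 endfoot and basement membrane genes, Lama2 was past 1.5-fold higher and Lama4 past 1.5-fold lower, with a median log2 ratio of 0.04. Lama2, a laminin chain gene, had 167 and 616 UMIs in 89 of 297 and 319 of 689 nuclei, or 99.6 and 185 CPM, and was 1.86-fold higher (1.56 to 2.22), with a ratio of 1.25 in the other nuclei. Lama4, another laminin chain gene, had 45.3 and 25.8 CPM and was 1.76-fold lower (1.27 to 2.42). Dmd, which encodes dystrophin, had 659 and 779 CPM, a ratio of 1.18 (1.1 to 1.27), and Dag1, which encodes its membrane partner dystroglycan, 1.03 (0.889 to 1.19).

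Genes for adhesion and guidance, through which Bergmann glia meet migrating neurons, were compared next. Of 25 compared genes, 0 were past 1.5-fold higher and 3 past 1.5-fold lower, with a median log2 ratio of -0.07. Cdh4, the cadherin gene that was lower, had 1648 and 2070 UMIs in 274 of 297 and 578 of 689 nuclei, or 983 and 622 CPM, and was 1.58-fold lower (1.48 to 1.69), with a ratio of 0.953 in the other nuclei. The others past 1.5-fold were Dcc, given above, and Ntn1, which encodes its ligand and had 52 and 67 UMIs and a ratio of 0.649 (0.445 to 0.95). Sema6a, a semaphorin gene, had 1039.8 and 768 CPM, a ratio of 0.739 (0.695 to 0.786), against 0.707 in the other nuclei. Unc5c, another netrin receptor gene, had 2228 and 1958 CPM, a ratio of 0.879 (0.844 to 0.915). Dab1, the adaptor of reelin receptors, had 866 and 1060.1 CPM, a ratio of 1.22 (1.15 to 1.3).

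Lipid genes were led by Apoe. Of 18 compared genes, 1 was past 1.5-fold higher and 1 past 1.5-fold lower, with a median log2 ratio of 0.09. Apoe (ENSMUSG00000002985, chromosome 7, 19696109 to 19699188, minus strand) had 1323 and 4498 UMIs in 207 of 297 and 559 of 689 nuclei, or 789 and 1351 CPM, and was 1.71-fold higher (1.61 to 1.82). After thinning, an Apoe UMI was present in 63% and 76.3% of nuclei. It was higher in all other nuclei as well, with a ratio of 2.2, and in parenchymal astrocytes, with 1.34 (1.22 to 1.49). Microglia also express Apoe. In members, their defining genes Csf1r and Mrc1 had 6 and 29 UMIs and 11 and 51 UMIs, ratios of 2.43 and 2.33. C1qa and C1qb had 5 and 9 UMIs and 3 and 17 UMIs. Of 5 compared microglia markers, 4 had a ratio above 1. The 9 microglia markers summed to 311 and 323 CPM, most of it P2ry12, which overlaps Med12l on the other strand. The part of free Apoe RNA in the result was not tested. Acsbg1, a fatty acid activating enzyme gene of astroglia, had 65.6 and 41.7 CPM and was 1.57-fold lower (1.21 to 2.03), and Scd2, a desaturase gene, had 554 and 623 CPM, a ratio of 1.12 (1.04 to 1.22).

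Cell cycle genes were compared as G2/M and S phase lists. Of 22 compared G2/M genes, 0 were past 1.5-fold higher and 1 past 1.5-fold lower (Ndc80), with a median log2 ratio of -0.08 that ranged from -0.30 to 0.28 over the alternatives. Of 24 S phase genes, 0 were past 1.5-fold higher and 6 past 1.5-fold lower (Mcm3, Mcm5, Cdc6, Chaf1b, Prim1 and Rad51ap1), with a median of -0.28 that ranged from -0.39 to 0.31. Mcm3 and Mcm5, which encode parts of the replicative helicase, had 33 and 34 UMIs and 34 and 40 UMIs, with ratios of 0.519 (0.312 to 0.864) and 0.592 (0.366 to 0.965).

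**Figure D4:**
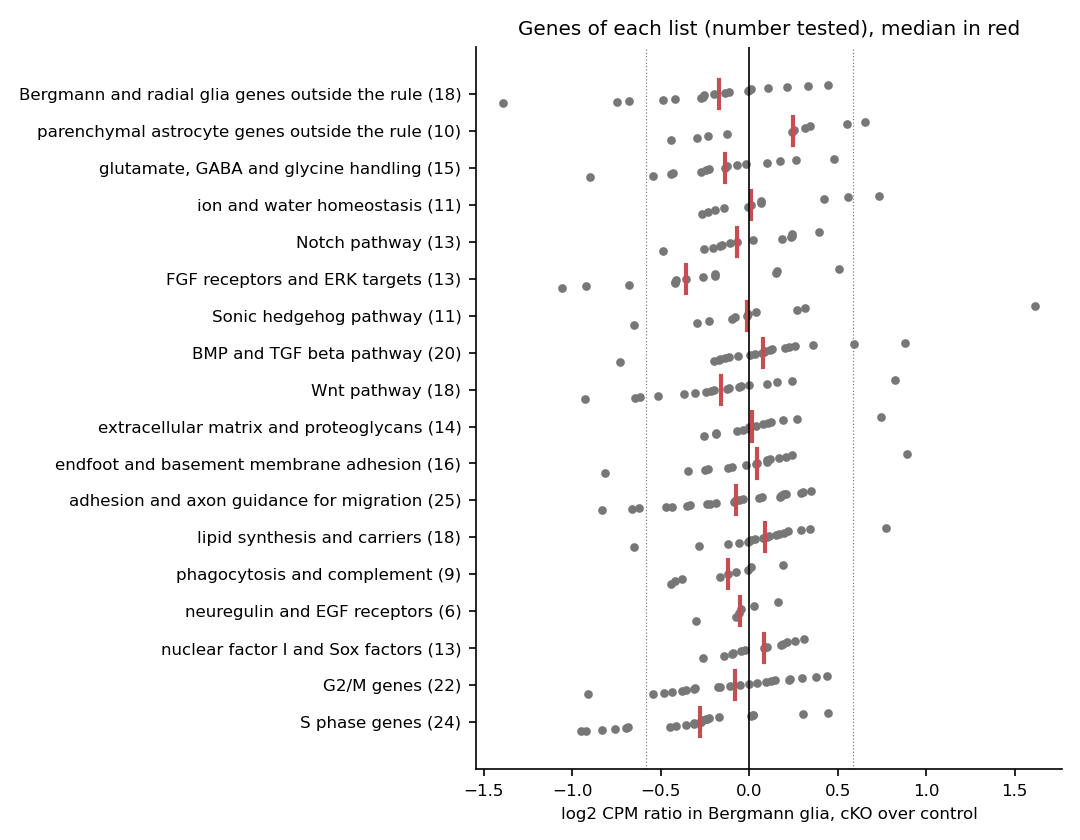
Each grey point is the log2 CPM ratio of 1 compared gene in Bergmann glia, library labelled cKO over control, grouped by list, with list medians in red and 1.5-fold marked by dotted lines. The FGF and S phase lists have medians of -0.36 and -0.28.

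Transport, phagocytosis and transcription factor lists are given beside the 6.80% of all compared genes past 1.5-fold higher and the 4.94% lower, shares at which a list of this size holds few. In ion and water homeostasis 1 of 11 compared, Clcn2, was past it on 13 and 43 UMIs, and Gja1 had 40.6 and 59.8 CPM, a ratio of 1.47 (1.11 to 1.97). Of 9 phagocytosis genes 0 were past it, and Mfge8, which encodes a bridge between dying cells and phagocytes, had 221 and 165 CPM, a ratio of 0.747 (0.654 to 0.855). Of 13 nuclear factor I and Sox genes 0 were past it. Nfia, needed for gliogenesis, had 1889 and 1766 CPM, a ratio of 0.935 (0.895 to 0.976), against 0.542 in the other nuclei. Of 6 neuregulin and EGF receptor genes and 5 immediate early and heat shock genes 0 were past it, and Erbb4, the neuregulin receptor gene, had 1189 and 1214 CPM, a ratio of 1.02 (0.967 to 1.08).

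Markers of the remaining cell types were counted in the same way. Of 6 compared interneuron and GABAergic progenitor markers Slc32a1 was past 1.5-fold higher, with a ratio of 1.61 (1.02 to 2.6) that was 1.05 once doublets were removed. Of 8 granule neuron markers 0 were past it, and of 2 endothelial, mural and meningeal markers 0 were. Of 4 oligodendrocyte lineage markers Bcas1 was lower, and of 5 microglia markers Csf1r and Mrc1 were higher. P2ry12 had 353 and 714 UMIs, a ratio of 1.02 (0.895 to 1.16), and the 9 microglia markers had a summed level of 300.3 and 417 CPM in the other nuclei.

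Selections of nuclei changed some of these ratios and left others. Of the 15 genes named as lower, 12 stayed past 1.5-fold in every alternative that gave a value, with 6330411D24Rik, Btbd11 and Kctd8 as exceptions. Of the 15 named as higher 9 did, with 4930438E09Rik, Car8, Cdh9, Cntnap5a, Gm49127 and Snhg11 as exceptions. Chil5 and Gm6878 gave 11 values and Vwa3a 12, of at most 15. The genes were chosen by these same counts and the alternatives reuse the same nuclei, so this is no independent check. Vwa5b1 ranged from 0.159 to 0.328, Ankrd6 from 0.247 to 0.334 and Spry2 from 0.412 to 0.548. Among genes higher in the cKO-labelled library, Apoe ranged from 1.55 to 2.15, Lama2 from 1.84 to 2.26 and Zbtb16 from 1.56 to 4.31. Gria1, at 0.651 to 0.775, and Cyp26b1, at 0.608 to 0.73 around a ratio of 0.676 (0.644 to 0.71), lay below 1 throughout.

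**Figure D5:**
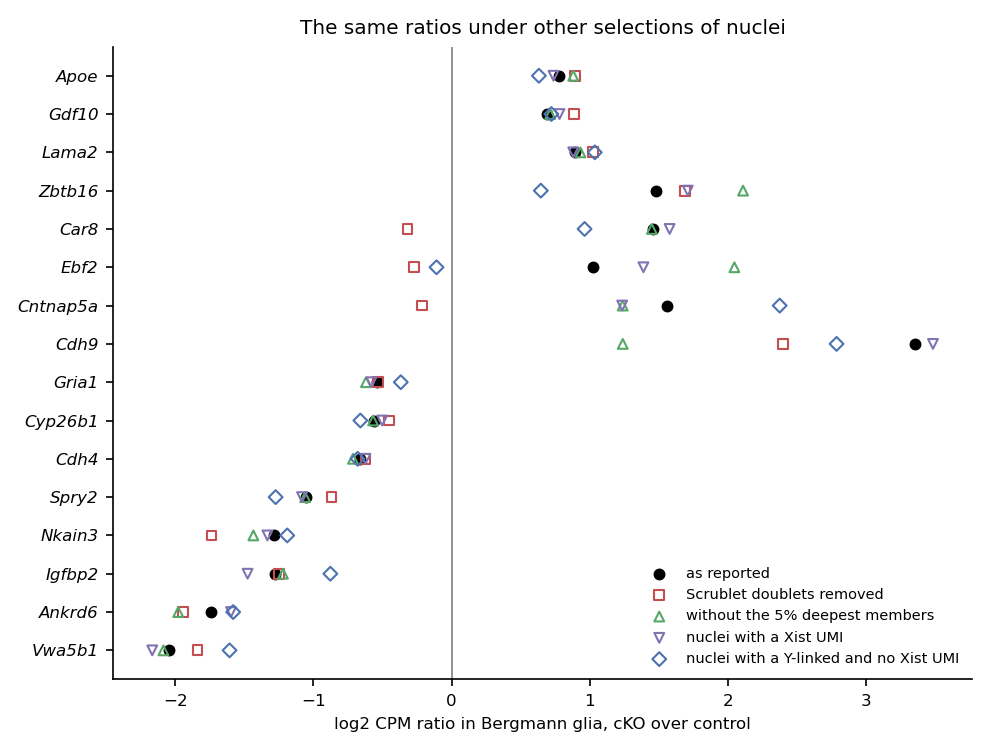
Points give the log2 CPM ratio in Bergmann glia as reported and under 4 other selections of nuclei for 16 genes. Car8, Ebf2 and Cntnap5a lie below 0 once doublets are removed. The 8 genes from Gria1 to Vwa5b1 stay below 0 and Apoe, Lama2 and Zbtb16 above it. Gdf10 also lies above 0, but as a gene of the rule it helped choose the nuclei in every selection.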

How the data were processed

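The deposited files held raw counts of UMIs per gene and nucleus for 2 libraries (32285 genes, 4857 and 6946 barcodes). These counts of 10x Genomics 3′ reads were made by the authors in Cell Ranger 7.0.1 with the mm10 (GRCm38) genome, as their processing notes and methods state. Whether intronic reads were counted is not given in the sources used here. Free RNA was not corrected and the main values keep doublets.

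The rule for Bergmann glia, the gene lists and the rule for named genes were chosen with earlier results of these data known. UMIs were summed per library over the members and divided by the summed total (CPM). Ratios have exact conditional binomial intervals, shares Clopper-Pearson intervals and CPM Poisson intervals. For ratios of shares these intervals treat the counts as Poisson, which makes them too wide where the shares are large. Genes that reached 30 UMIs over the libraries were held against 1.5-fold, a fixed size and not a significance test. Named genes were the 15 in each direction outside the rule whose interval bound nearest 1 lay farthest from it, the 20 genes with the largest fold of members over other nuclei (50 CPM or more), and from each list those with the most UMIs and those past 1.5-fold. A few further genes were named for their known roles after their values were seen, among them Grm5, Gli1, Nfia, Etv1, Spred2, Egfr, Atoh1 and the microglia markers. Alternatives changed the rule, the gene minimum, the scaling, the UMI minimum, the choice of nuclei by Xist or Y-linked UMIs and the removal of doublets with Scrublet (0.8% per 1000 barcodes, scanpy 1.11.5, 189 and 386 nuclei). Some were added after the data had been seen: leaving out the 5% deepest members, members without Gdf10 or members with Purkinje cell markers, stricter gates, and a microglia gate of Csf1r 3 or more, as the first (334 and 640 nuclei) also took neurons. Gene coordinates came from GENCODE vM21 on GRCm38, matched by gene ID. The ratio code was tested on simulated data. Python 3.11.15, numpy 2.4.6, scipy 1.17.1 and pandas 2.3.3 were used. Some genes are not reported here.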

Additional observations from a re-analysis of the deposited data

Results flagged for a closer look

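Only the 30 named genes and the compared genes of the lists were searched here, not all compared genes. In 3 of them the ratio of the cKO-labelled library over control passed 1.5-fold in opposite directions in Bergmann glia and another set of nuclei. Both counting intervals left out 1, and in parenchymal astrocytes at least 30 UMIs were required. Other named genes past 1.5-fold in opposite directions had fewer UMIs or an interval that held 1. Bcas1 had a ratio of 0.37 in Bergmann glia and 1.69 (1.52 to 1.89) in all other filtered nuclei. Dcc had 0.561 in Bergmann glia and 1.95 (1.55 to 2.48) in parenchymal astrocytes, on 85 and 534 UMIs in the latter. Ntn1, which encodes the ligand of Dcc, had 0.649 in Bergmann glia and 2.8 (1.11 to 9.02) in parenchymal astrocytes. The parenchymal astrocytes were only 29 control nuclei and 105 nuclei of the cKO-labelled library, and their gene ratios were not recomputed without doublets. With 1 library per group, none of these differences was tested.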

How the results depend on the processing

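No paired analysis was possible because each group was 1 library. Of 18 alternatives, those that bear on shares gave ratios of the astroglia share from 0.873 to 0.985. The ratio of the share of filtered nuclei stayed within its counting interval, except in nuclei with a Y-linked and no Xist UMI, where it was 1.08. The counts of genes past the fold moved with its definition: 1757 higher and 1274 lower with 10 UMIs or more, 236 and 163 with 100 or more, and 225 and 100 past 2-fold. The other alternatives gave counts within 1.5 times of those reported. The Tox3 ratio was 0.961 in nuclei with a Y-linked and no Xist UMI and 0.967 in members with fewer than 3 G2/M UMIs. In the gate without Gdf10 its ratio was 1.72 after doublet removal. In the gate without Tnc its ratio was 0.798 with 5 or more Gdf10 UMIs, 0.744 with a Xist UMI and 0.913 with a Y-linked and no Xist UMI.

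Doublet removal turned the ratios of Cntnap5a (0.862), Car8 (0.802), Snhg11 (0.893), Calb1 (0.744) and Ebf2 (0.827) and the median of the Purkinje cell markers (-0.27). Among ratios past 1.5-fold as reported, the others that crossed 1 were Ebf2 in nuclei with a Y-linked and no Xist UMI (0.927), Mrc1 with 5 or more Slc1a3 UMIs (0.874), Gm49127 without members with Purkinje cell markers (0.265), and, in members with fewer than 3 G2/M UMIs, 6330411D24Rik (1.13), Rad51ap1 (1.51) and Pcp2 (0.756). The cause of these was not tested. Of 1425 gene ratios over the alternatives, 165 others left the counting interval of the reported value. Ratios short of 1.5-fold as reported that also crossed 1 in some alternative were those of Dmd (0.962 to 1.31), Slc1a3 (0.893 to 1.02), Fabp7 (0.946 to 1.05) and Ptprz1 (0.886 to 1.11). Depth limits genes with few UMIs: Folh1, Dnah12, Pifo, Chil5 and Vwa3a had 1 to 4 UMIs in control.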

Other observations

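Further genes set Bergmann glia apart from parenchymal astrocytes in both libraries, again without a replicate check. Lhfpl3, a gene of the tetraspan LHFP family, had 855 and 665 CPM in Bergmann glia and 166 and 107 CPM in parenchymal astrocytes, a ratio of 5.15 (3.5 to 7.91) in control and 6.21 (4.74 to 8.3) in the cKO-labelled library. Pdgfc, which encodes a platelet-derived growth factor ligand, had 376 and 308 CPM in Bergmann glia and 51.1 and 77.3 CPM in parenchymal astrocytes. Kcnd2, which encodes a potassium channel of the A type, had 643 and 770.0 CPM in Bergmann glia and 2924 and 3486 CPM in parenchymal astrocytes, a ratio of 0.22 (0.197 to 0.246) in control and 0.221 (0.208 to 0.235) in the cKO-labelled library. Gpc5 had 23.3 and 39 CPM in Bergmann glia and 249 and 286 CPM in parenchymal astrocytes. These parenchymal astrocytes were only 29 control nuclei and 105 nuclei of the cKO-labelled library.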
